A study of Mus musculus with 12 samples.

Results

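Ly6a, Ly6c1, Ly6c2, Ly6e and Ly6i are 5 genes of the Ly6 family, and their rows were taken by symbol from a table of 43278 gene symbols measured in mouse peritoneal macrophages (PMφs). All 5 symbols had a row. The genes were picked with their values in all 4 groups in view, so their levels and fold changes are given as a description without a test, and tests are given for genes that are not among the 5. The 12 libraries came from wild-type C57BL/6J mice and form 4 groups of 3. Control PMφs received neither agent, oxLDL PMφs received 100 µg/ml human medium oxidized LDL for 24 h, LPS PMφs received 10 ng/ml ultrapure LPS, and oxLDL+LPS PMφs received oxLDL and then LPS. LPS was left on macrophages for up to 6 h by the study's methods, and the time used for these libraries is not given in the sources used here. The mice were adults, male and female, all groups shared the thioglycolate injection that draws monocyte-derived cells into the peritoneal cavity, and the cells of several animals were pooled before being divided among the groups. A library is therefore a pool, and in such bulk RNA fewer cells that express a gene and less RNA per cell cannot be told apart. The comparisons ask what LPS and oxLDL loading do to the transcriptome of these cells.

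Ly6 proteins are small proteins built around a finger-like fold held by disulfide bonds, the LU domain, and most are tethered to the outer leaflet of the plasma membrane by a glycosylphosphatidylinositol (GPI) anchor. Ly6a is Sca-1, used to sort mouse haematopoietic stem cells and raised on many cells by interferon. Ly6c1 and Ly6c2 encode the Ly-6C antigen that marks classical mouse monocytes and is low on mature macrophages. Ly6e is an interferon-stimulated gene whose product alters the entry of several viruses, and Ly6i is a less studied relative found in macrophages and other cells.

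The 5 genes lie side by side on mouse chromosome 15 of GRCm38 within 157 kb. By the GENCODE annotation Ly6e spans chr15:74955051-74959905 on the plus strand. The other 4 are on the minus strand, Ly6i at chr15:74979534-74983430, Ly6a at chr15:74994877-74998031, Ly6c1 at chr15:75044018-75048830 and Ly6c2 at chr15:75108158-75111970. Each is annotated as protein-coding, and none overlaps another annotated gene. Ly6c1 and Ly6c2 are the pair most alike in sequence. Their annotated transcripts share an unbroken stretch of 188 bases, and 21.3% of the 75-base windows of the Ly6c1 transcript also occur in Ly6c2, against 1.7% of those of Ly6a in Ly6c1 and 0.7% of those of Ly6a in Ly6i. Ly6e shares no stretch longer than 12 bases with Ly6a, Ly6c1, Ly6c2, Ly6i, Ly6f or Ly6g. At 150 bases, the read length in the study's methods, 5.6% of the windows of the Ly6c1 transcript occur in Ly6c2. Reads from the shared stretch of Ly6c1 and Ly6c2 cannot be placed in one gene by sequence. The values of these 2 genes are uncertain to that extent.

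The upstream sequences of Ly6c1 and Ly6c2 are shown because the 2 genes resemble each other closely and yet were measured at very different levels. They are the 250 bases before the RefSeq start site that lies furthest upstream, read 5′ to 3′ on the minus strand from RefSeq's GRCm38.p6 promoter sequences, at chr15:75048838-75049087 for Ly6c1 and chr15:75111972-75112221 for Ly6c2. Capitals mark the longest stretch that both contain, 20 bases, which begins 40 bases before the start site in Ly6c1 and 65 bases before it in Ly6c2.
Ly6c1: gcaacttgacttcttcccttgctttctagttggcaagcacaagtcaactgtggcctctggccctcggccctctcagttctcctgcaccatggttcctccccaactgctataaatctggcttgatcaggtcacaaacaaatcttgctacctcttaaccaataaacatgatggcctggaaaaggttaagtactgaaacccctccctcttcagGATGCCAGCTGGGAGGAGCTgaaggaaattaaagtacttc
Ly6c2: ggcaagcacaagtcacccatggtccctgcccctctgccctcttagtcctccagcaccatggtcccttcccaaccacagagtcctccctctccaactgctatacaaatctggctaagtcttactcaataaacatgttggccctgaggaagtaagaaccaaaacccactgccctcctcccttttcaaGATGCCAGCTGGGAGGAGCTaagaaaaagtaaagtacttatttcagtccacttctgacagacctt
In a global alignment 171 of 210 aligned bases were identical (81.4%), with 80 further bases opposite gaps. The motifs of 3 interferon- or LPS-activated factors were searched on both strands of the 300-base RefSeq windows (250 bases before to 50 after each start site). They were an interferon-stimulated response element (GAAA, any 2 bases, GAAA), a gamma-activated site (TTC, any 3 bases, GAA) and an NF-κB site (GGG, any 2 bases, TTTCC). Of 32544 mouse windows, 3.448%, 8.327% and 1.613% hold them. Neither the 2 windows of Ly6c1 nor the 2 of Ly6c2 holds any of these letter patterns, which says nothing of other windows or of the factors.

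The values are normalized counts, that is, reads per gene divided by 1 factor per library by the authors and rounded. Library depth as read from the spacing of the values was 16.7 to 26.2 M reads, and the limit that a count of 0 allows (3 reads) corresponds to a normalized count of 2.29 to 4.24. Macrophage markers were high throughout, with all 9 detected and a summed normalized count of 239683 to 339668. The 6 markers of inflammatory monocytes, which also carry Ly-6C, summed to 543 to 1197 in control libraries, 517 to 1096 with oxLDL, 904 to 2349 with LPS and 846 to 2330 with oxLDL+LPS. They did not move together. In LPS against control 3 of the 6 were called higher and 1 lower, beside 31.4% and 30.3% of all genes tested. Ccr2, their defining receptor, ran from 28 to 89 without LPS and from 5 to 30 with it, whereas Plac8 ran from 3 to 12 and from 41 to 107. The 8 neutrophil markers summed to 71 to 106 without LPS and 83 to 260 with it, while Ly6g, the Ly6 gene that defines neutrophils, was at 0 in all 12 libraries. Some markers of cells outside the blood lineage were also present. The 10 markers of mesothelial cells and fibroblasts, all detected in each group, summed to 5821 to 25130 in control, 6108 to 20655 with oxLDL, 6310 to 32024 with LPS and 5432 to 18534 with oxLDL+LPS, with number 3 the lowest and number 2 in the middle of every group. Of the 8 endothelial markers only 1, 2, 3 and 2 reached 10 in some library of these groups, in the same order, and Cldn5 was at 0 in all 12 libraries. Their sums were 289 to 426, 243 to 358, 484 to 720 and 351 to 454. The 2 that passed the filter in LPS against control were called higher, beside 31.4% of all genes tested, and nothing is read from 2 genes. The part of other cell types in the results was not tested.

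Before the results, libraries that stand apart must be named. The library numbered 2 had high Xist (5933 to 7751) and almost none of the Y-linked genes Ddx3y, Eif2s3y, Kdm5d and Uty in each group, with summed normalized counts of 0, 0, 2 and 0. Number 3 had both kinds in each group. Number 1 had Xist at 1 and 2 in the control and oxLDL libraries but 6331 and 3812 in the LPS and oxLDL+LPS libraries, so the cells behind number 1 were not the same mixture of animals with and without LPS. Within each LPS state, in contrast, libraries of one number deviated together, with correlations over genes of 0.664 to 0.733 between their deviations from the group means.

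Ly6e was by far the most abundant of the 5 and was present in every library. Its normalized counts were 2147, 3068 and 2290 in the control libraries 1, 2 and 3, and 2259, 3072 and 2330 with oxLDL. They were 14260, 16803 and 17144 with LPS and 15071, 17676 and 15303 with oxLDL+LPS. All 6 LPS-treated libraries lay above all 6 others, and the 2 groups of each LPS state overlapped. The means were 2502 ± 496 (SD, n = 3) in control, 2554 ± 450 with oxLDL, 16069 ± 1576 with LPS and 16017 ± 1442 with oxLDL+LPS. The log2 fold change with LPS was 2.70 (standard error 0.15, 95% interval 2.34 to 3.05), and in oxLDL-loaded cells it was 2.66 (standard error 0.14, 95% interval 2.33 to 2.98). In summed reads these are ratios of 6.48 and 6.28.

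Ly6c2 was almost undetected without LPS and ranged widely with it. Its normalized counts were 1, 1 and 0 in control and 1, 3 and 0 in oxLDL PMφs. They were 296, 32 and 284 in LPS PMφs and 572, 66 and 568 in oxLDL+LPS PMφs. Every LPS-treated library lay above every library without LPS, and in both LPS groups library 2 was far below libraries 1 and 3. The log2 fold change with LPS was 6.47 (standard error 0.85, 95% interval 4.50 to 8.44) without oxLDL and 7.13 (standard error 0.91, 95% interval 4.99 to 9.26) with it, on the scale of log2 of the normalized count plus 1. About 512 reads over the 3 LPS libraries stood against about 2 over the 3 control libraries, a ratio of 333.7 with a 95% counting interval of 91.9 to 2763. With oxLDL about 1090 reads stood against about 4, a ratio of 337.9 (131.6 to 1243). These intervals cover counting error only.

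Ly6i behaved much like Ly6c2. Normalized counts were 0, 0 and 3 in control, 0, 0 and 1 with oxLDL, 215, 55 and 194 with LPS, and 376, 74 and 373 with oxLDL+LPS. Here too the LPS-treated libraries did not overlap with the others, and library 2 was the lowest of each LPS group. The log2 fold change was 6.39 (standard error 0.72, 95% interval 4.70 to 8.07) in unloaded and 7.44 (standard error 0.68, 95% interval 5.84 to 9.05) in oxLDL-loaded cells. About 397 reads stood against about 4 in unloaded cells, a ratio of 129.4 (50.1 to 477), and about 743 against a single read in loaded cells, a ratio of 921.4 whose counting interval, 164.9 to 36440, is correspondingly wide.

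Ly6a stayed low. Normalized counts were 1, 5 and 5 in control, 2, 1 and 9 with oxLDL, 79, 23 and 64 with LPS, and 81, 34 and 39 with oxLDL+LPS. The LPS-treated libraries lay above the others without overlap, but the highest of them held less than the lowest Ly6e library by more than an order of magnitude. The log2 fold change was 3.59 (standard error 0.62, 95% interval 2.15 to 5.03) without oxLDL and 3.63 (standard error 0.66, 95% interval 2.09 to 5.18) with it, and the ratios of summed reads were 15.6 (8.68 to 31.0) and 11.6 (6.78 to 21.2).

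Ly6c1 was not detected without LPS, at 0 in all 6 libraries. It reached 2, 1 and 0 with LPS and 0, 1 and 1 with oxLDL+LPS, which is at or under the limit that a count of 0 allows, so no fold is given. Ly6c1 was the one gene of the 5 that passed the filter on low values (10 or more in at least 3 of the libraries compared) in no comparison, although its transcript shares sequence with Ly6c2.

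**Figure D1:**
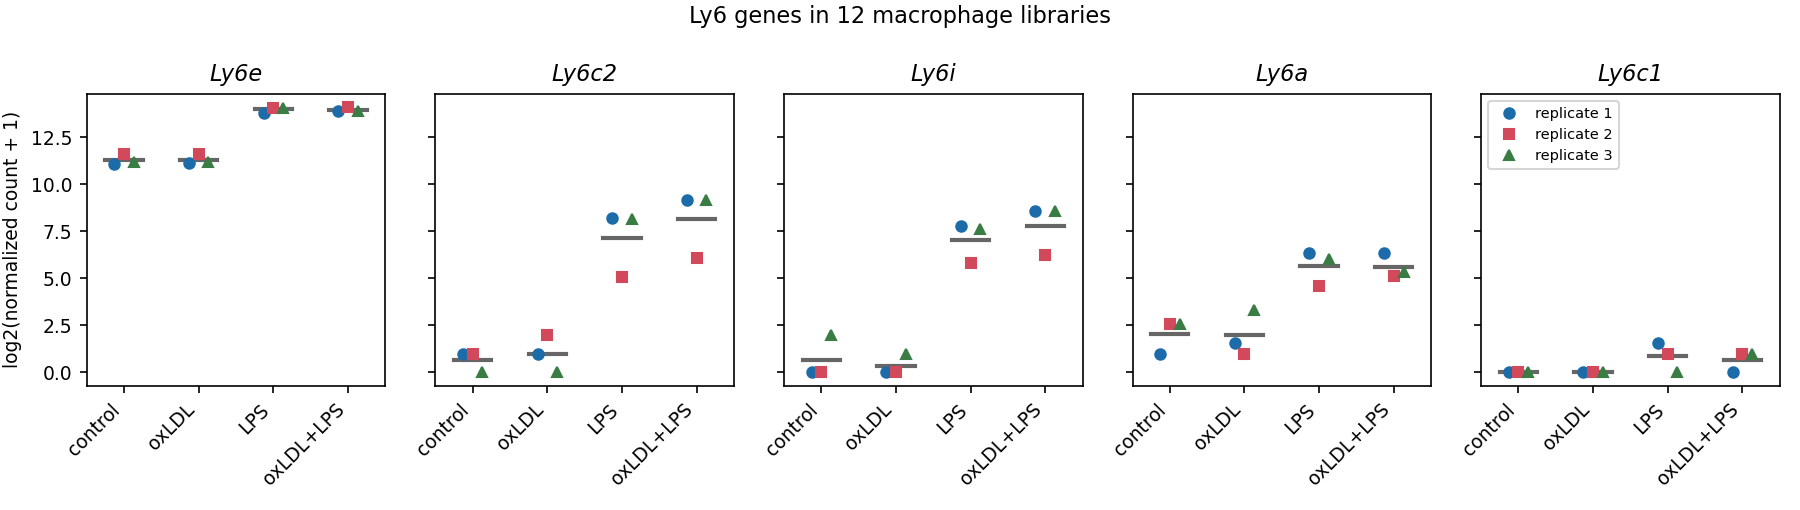
Level of each Ly6 gene in the 12 libraries, as log2 of the normalized count plus 1 (vertical axis) by group (horizontal axis). Points are libraries, shaped by replicate number, and bars are means of 3. Ly6e is high everywhere and higher with LPS, Ly6c2, Ly6i and Ly6a appear with LPS, replicate 2 is the lowest LPS point of these 3 genes, and Ly6c1 stays at 0 to 2 normalized counts.

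Per kilobase of annotated exon, merged over the transcripts of a gene, the order in LPS PMφs was Ly6e (median 4441 normalized counts per kb, 3768 to 4531), Ly6i (168, 47.6 to 186), Ly6c2 (104, 11.7 to 108), Ly6a (53.1, 19.1 to 65.6) and Ly6c1 (0.60, 0 to 1.19). Ly6e stood clear of the rest, while the ranges of Ly6i, Ly6c2 and Ly6a over libraries overlapped. With oxLDL+LPS the medians were 4044 for Ly6e, 323 for Ly6i, 207 for Ly6c2, 32.4 for Ly6a and 0.60 for Ly6c1. Within single LPS-treated libraries Ly6e per kb exceeded Ly6i by 12.3 to 93.3 times, Ly6c2 by 19.1 to 380.2 times and Ly6a by 57.5 to 232.6 times. The highest ratio for each came from the LPS library 2. Compared within libraries, Ly6i per kb lay above both Ly6c2 and Ly6a in all 6, and Ly6c2 lay above Ly6a in the 4 libraries numbered 1 and 3 and below it in the 2 numbered 2. The place of Ly6c2 depends on the length used. Its merged exons span 2740 bases and its longest coding transcript 822, against 1156 and 1156 for Ly6i and 1205 and 955 for Ly6a. Ly6c2 had more normalized counts than Ly6i in the 4 libraries numbered 1 and 3, and more than Ly6a in all 6. By transcript length it would thus lie above Ly6i in those 4 and above Ly6a in all 6. With its shorter transcript it would also lie above Ly6i in the oxLDL+LPS library 2, at 66 against 74 normalized counts. In the LPS library 2, at 32 against 55, it would stay below Ly6i. In control PMφs Ly6e had a median of 605 and Ly6a of 4.15 normalized counts per kb.

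**Figure D2:**
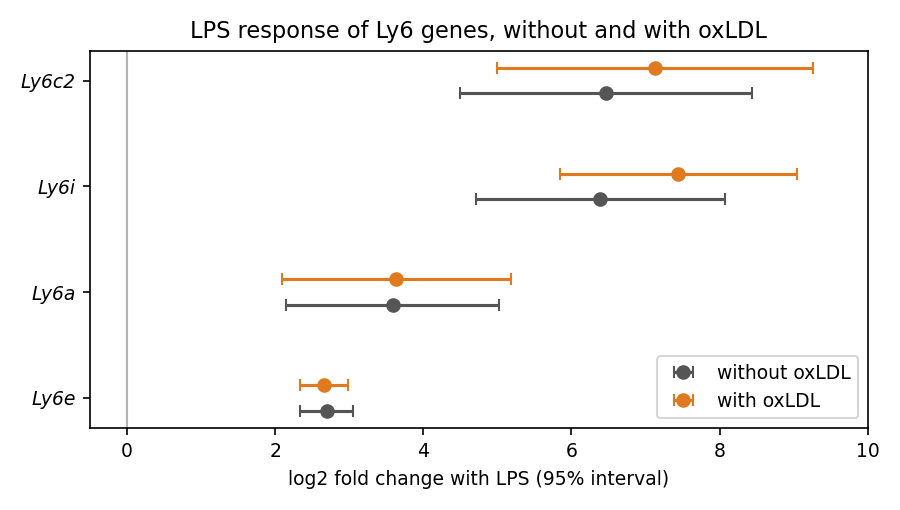
Log2 fold change with LPS of the 4 Ly6 genes that passed the filter on low values (horizontal axis), without oxLDL (LPS against control) and with oxLDL (oxLDL+LPS against oxLDL). Points are estimates from 3 against 3 libraries and bars 95% intervals. Ly6e has the smallest change, near 2.7, with the narrowest interval, and for each gene the intervals without and with oxLDL overlap.

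Of the 5 genes, 4 were tested in each LPS comparison and all 4 were called higher at an adjusted p under 0.1, where 31.4% of the 13023 genes tested in LPS against control and 28.2% of the 12900 genes tested in oxLDL+LPS against oxLDL were. Ly6c2, Ly6i and Ly6a passed the filter through their LPS-treated libraries alone, and all 5 were picked on these values, so nothing is read from this count.

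With oxLDL alone, Ly6e lay close to its control level. The oxLDL libraries exceeded the control libraries of the same number by ratios of 1.05, 1.00 and 1.02, and the log2 fold change was 0.033 (standard error 0.16, 95% interval −0.35 to 0.42). Fitting the replicate number as a block narrowed its interval to −0.061 to 0.13. The other 4 genes held at most 9 normalized counts in these 6 libraries and were not tested, so an effect of oxLDL without LPS was not detectable for them at this depth. Over all 12751 genes tested with limma, 0 were called, 381 had an unadjusted p under 0.05, and 601 (4.71%) were called with the block.

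In LPS-treated cells, oxLDL went with more Ly6c2 and more Ly6i in every pair of libraries of one number. For Ly6c2 the ratios of oxLDL+LPS to LPS were 1.93, 2.06 and 2.00 in numbers 1, 2 and 3, close to each other although number 2 started from 32 normalized counts and the other two from 296 and 284. For Ly6i they were 1.75, 1.35 and 1.92. Ly6a had ratios of 1.03, 1.48 and 0.609 and Ly6e of 1.06, 1.05 and 0.893, so that these 2 genes moved in both directions. The groups of 3 overlapped for all 4 genes.

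Without a block, the log2 fold change of oxLDL+LPS against LPS was 0.99 for Ly6c2 (standard error 1.11, 95% interval −1.62 to 3.60) and 0.72 for Ly6i (standard error 0.76, 95% interval −1.06 to 2.504). With the replicate number as a block the estimates were the same and the intervals narrowed to 0.75 to 1.23 for Ly6c2 (standard error 0.11) and 0.42 to 1.02 for Ly6i (standard error 0.13). For Ly6a the blocked value was −0.040 (standard error 0.25, 95% interval −0.61 to 0.53), an interval that spans changes in both directions. For Ly6e it was −0.0037 (standard error 0.099, 95% interval −0.23 to 0.22). Ly6c2 and Ly6i were thus called higher with the block and not without it, beside 4.42% of all 12786 genes tested that were called higher with the block and 0 of them without it (890 had an unadjusted p under 0.05). In the blocked fit 91 genes (0.712%) had a fold change at least as high as that of Ly6c2 and 219 (1.71%) one at least as high as that of Ly6i. Both genes were picked with these values in view, and these places describe them without testing them. The ratios of summed reads were 2.159 (95% counting interval 1.942 to 2.403) for Ly6c2 and 1.898 (1.678 to 2.149) for Ly6i. Both counting intervals cover counting error only and leave out the spread between libraries.

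**Figure D3:**
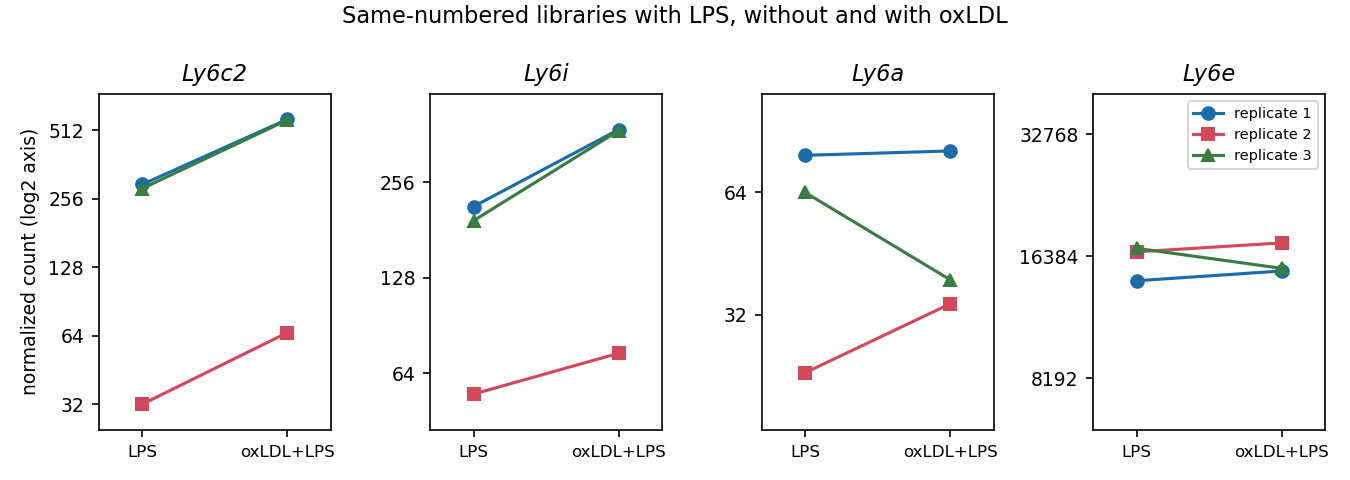
Normalized counts of Ly6c2, Ly6i, Ly6a and Ly6e (vertical axis, log2 scale) in LPS and oxLDL+LPS libraries, with lines joining libraries of the same replicate number. All 3 lines rise for Ly6c2 and Ly6i, Ly6c2 by ratios of 1.93 to 2.06, while those of Ly6a and Ly6e go in both directions.

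Whether the response to LPS itself differed with oxLDL was asked by the interaction of the 2 treatments over all 12 libraries. It was 0.66 for Ly6c2 (95% interval −2.38 to 3.69) and 1.05 for Ly6i (−1.33 to 3.44) on the log2 scale, and with a block for each number within each LPS state it was 0.66 (−0.22 to 1.53) and 1.05 (0.10 to 2.01). For Ly6a it was 0.048 (−2.09 to 2.18) and for Ly6e −0.037 (−0.51 to 0.44) without the block. None of the 4 was called in either fit. Limma called 0 of 13482 genes without the block, where 418 had an unadjusted p under 0.05, and 147 (1.09%) with it. For Ly6c2 and Ly6i this interaction rests on values of 0 to 3 in the libraries without LPS.

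Number 2 set Ly6c2, Ly6i and Ly6a apart from Ly6e. Relative to the mean of numbers 1 and 3, the library numbered 2 held 11.0% of the Ly6c2 in the LPS group and 11.6% in the oxLDL+LPS group. For Ly6i these shares were 26.9% and 19.8%, and for Ly6a 32.2% and 56.7%, whereas for Ly6e they were 107% and 116%. Of the 12786 genes tested in LPS-treated cells, 69 (0.54%), Ly6c2 and Ly6i among them, were at least 2-fold lower in number 2 than in each of numbers 1 and 3 in both groups, and 54 (0.42%) were at least 2-fold higher. None of 30 interferon-stimulated genes was among either set, and beside shares this small nothing is read from that. The Y-linked genes are also among the 69, since number 2 had 2 and 0 summed normalized counts of them in these 2 groups against 1004 to 1783 in the other 4 libraries. The part of the sex of the animals in the level of Ly6c2 and Ly6i was not tested, since number 2 is the one pool of its kind in each group.

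With the block, leaving out number 1, 2 or 3 gave log2 fold changes of 1.01, 0.97 and 0.98 for Ly6c2 and of 0.68, 0.87 and 0.61 for Ly6i. Both genes were called without number 2, where 2755 of 12786 genes were called in either direction. Both were picked on these values, so nothing is read from their calls. Neither was called without number 1 or without number 3, where 0 of 12786 genes were called, so that the blocked call of both genes was lost with either of these numbers left out although the values stayed close. Leaving out the LPS library 2 by itself, which unbalances the numbers, moved Ly6c2 to −0.058 and leaving out the oxLDL+LPS library 2 by itself moved it to 2.02 in the fit without a block. For Ly6i these values were 0.097 and 1.496.

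The pathway most often tied to Ly6 genes in myeloid cells is the interferon response. Type I interferon, which macrophages make after LPS, acts through Ifnar1, Ifnar2 and the kinases Jak1 and Tyk2 on transcription factors such as Stat2 and Irf9, which turn on interferon-stimulated genes. Of 11 interferon genes, none passed the filter in the LPS comparisons. Ifnb1, which encodes interferon-β, was at 0 in the 6 libraries without LPS, at 8, 5 and 13 with LPS and at 4, 2 and 8 with oxLDL+LPS. Ifng, which encodes interferon-γ, was at 0 without LPS, at 12, 14 and 6 with LPS and at 1, 10 and 9 with oxLDL+LPS.

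Genes downstream of interferon rose with LPS beside the Ly6 genes. All 30 interferon-stimulated genes were called higher in LPS against control and in oxLDL+LPS against oxLDL, with medians of 5.87 and 5.74 on the log2 scale, where the median of all genes tested was −0.00097 and −0.018. Isg15, a ubiquitin-like modifier, rose by 8.60 (standard error 0.15, adjusted p = 7.39e-08 from limma) and Bst2, a GPI-anchored protein that tethers viruses to the membrane, by 3.43 (standard error 0.085, adjusted p = 1.67e-07 from limma). The change of Ly6e was below that of all 30, whereas the values for Ly6c2 and Ly6i lay within the range of the 30. Beside the 31.4% of all genes tested that were called higher, 6 of 8 transcription factors were, among them Irf7 (6.77) and Stat2 (4.49), and 2 were not called, Irf3 (−0.16) and Irf8 (0.15). Of 7 receptors and kinases 6 were called higher, including Jak2 (3.93), Ifnar1 (1.73) and Ifnar2 (1.65), and Ifngr1, a chain of the interferon-γ receptor, was called lower (−0.57), as were 30.3% of all genes tested. Of 5 feedback inhibitors 4 were called higher, including Usp18 (7.11), Socs3 (6.50) and Socs1 (6.23).

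With oxLDL in LPS-treated cells these genes did not go the way of Ly6c2 and Ly6i. In the blocked fit 0 of the 30 interferon-stimulated genes were called higher and 6 lower, with a median of −0.25 beside −0.012 over all genes tested and 8.74% of all genes called lower. The 6 were Cxcl10 (−0.98), Ifi44 (−0.45), Oas2 (−0.45), Isg20 (−0.44), Mx2 (−0.44) and Zbp1 (−0.36). Socs3 fell by 1.18 (standard error 0.15, adjusted p = 0.00559 from limma with the block) and Socs1 by 1.03 (standard error 0.14, adjusted p = 0.00648). Irf8 fell by 0.83 (adjusted p = 0.0389 from limma with the block), Ifnar1 by 0.42 and Jak2 by 0.38. Without the block none of these was called.

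**Figure D4:**
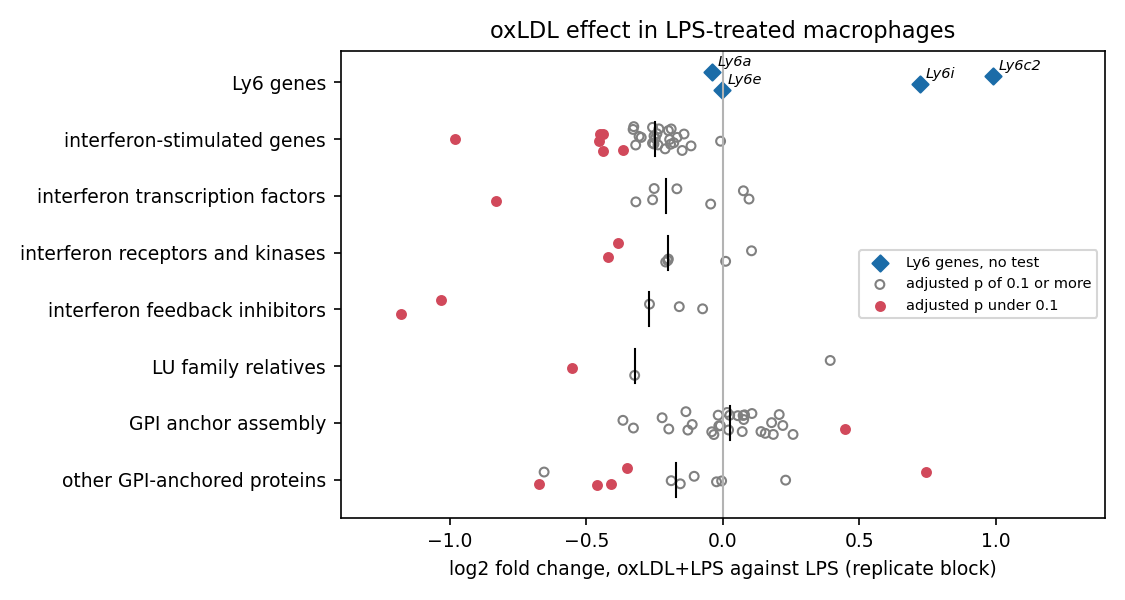
Log2 fold change of oxLDL+LPS against LPS with the replicate number fitted as a block (horizontal axis), for the 4 Ly6 genes that passed the filter (diamonds, no test) and for each tested gene of 7 lists (circles, filled where the adjusted p was under 0.1). Black lines are list medians. Ly6c2 at 0.99 and Ly6i at 0.72 lie to the right of all 30 interferon-stimulated genes, whose median is −0.25.

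Most relatives with the same LU fold were at or near 0. Of 36 other family members in the table, 16 were at 0 in all 12 libraries, beside 18273 of all 43278 symbols, so nothing is read from this count. Of the 36, 31 never exceeded 9, a share not counted over all symbols. The other 5 reached 10 in some library, with highest values of 11987 for Plaur, 98 for Cd59a, 93 for Lynx1, 16 for Ly6d and 11 for Cd59b. Plaur, the receptor for urokinase, was the single relative near the level of Ly6e. It held 3145, 2827 and 2972 normalized counts in control, 6650, 11987 and 9300 with LPS and 4744, 9388 and 5292 with oxLDL+LPS. The LPS libraries did not overlap with the control libraries, and number 2 was the highest of each LPS group. Plaur rose by 1.60 on the log2 scale with LPS (standard error 0.20, adjusted p = 3.17e-04 from limma) and by 1.07 in oxLDL-loaded cells (standard error 0.24, adjusted p = 0.00862). Between oxLDL+LPS and LPS it fell by 0.55 with the block (standard error 0.10, adjusted p = 0.0152 from limma). Lynx1, a modulator of nicotinic receptors, rose with LPS by 0.72 (adjusted p = 0.0234 from limma) and Cd59a, an inhibitor of complement lysis, fell by 0.64 (adjusted p = 0.0538).

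The neighbours of the 5 genes on the chromosome were at or near 0 in these cells. The 3 nearest protein-coding genes on each side that have a row are Cyp11b1, Cyp11b2 and 2010109I03Rik beyond Ly6e, and Ly6g, BC025446 and Ly6f beyond Ly6c2. None exceeded 9 in any library and the highest value was 7, for 2010109I03Rik, an older symbol of the relative Ly6m. That gene was at 0 or 1 without LPS, at 3, 0 and 3 with LPS and at 4, 2 and 7 with oxLDL+LPS. Ly6g, BC025446 and Ly6f were at 0 throughout. Among all 11 genes of the stretch, LPS-treated values of 10 or more were thus seen for Ly6e, Ly6i, Ly6a and Ly6c2, with Ly6c1 at 0 to 2 between Ly6a and Ly6c2.

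**Figure D5:**
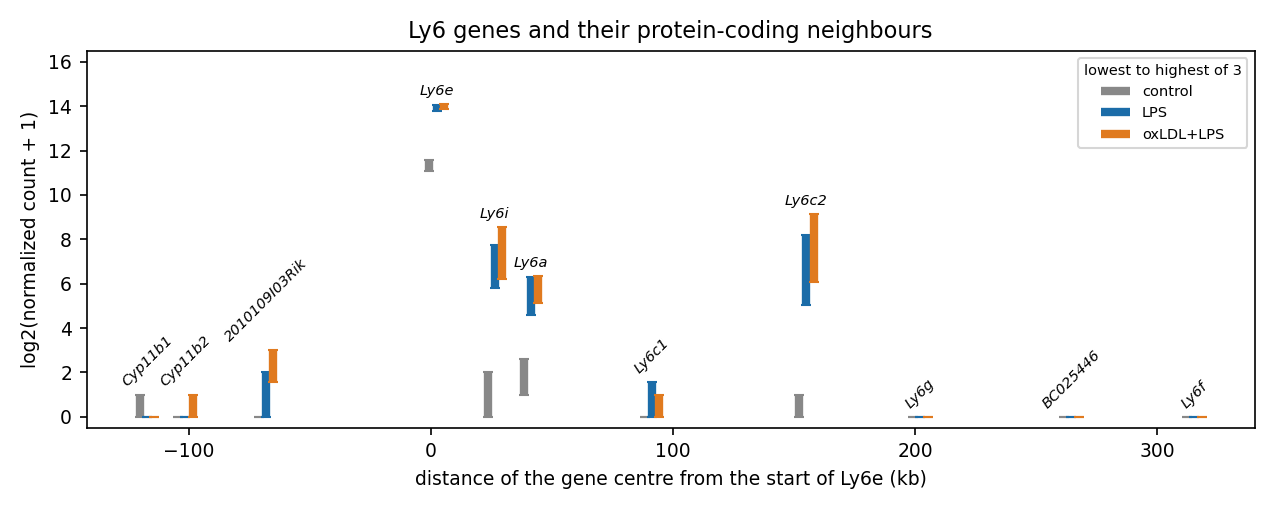
Level of the 5 Ly6 genes and 6 protein-coding neighbours as log2 of the normalized count plus 1 (vertical axis) by distance of the gene's centre from the start of Ly6e in kb (horizontal axis). Bars run from the lowest to the highest of 3 libraries for control, LPS and oxLDL+LPS. Ly6e, Ly6i, Ly6a and Ly6c2 rise above the other genes, and no neighbour exceeds 7 normalized counts.

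GPI anchors are built in the endoplasmic reticulum and remodelled after their attachment by a set of enzymes. Of 29 such genes tested in LPS against control, 4 were called higher and 10 lower, with a median of −0.15, beside 31.4% and 30.3% of all genes tested. The largest called changes were those of Pgap2 (1.74, standard error 0.16, adjusted p = 6.60e-05 from limma) and Mppe1 (1.00), which remodel the anchor after its attachment, and Pigyl (−0.96) and Pgap1 (−0.86). In oxLDL-loaded cells 3 were called higher and 4 lower, where 28.2% and 26.3% of all genes tested were. With the block these counts were 7 and 8, where 32% and 31.4% of all genes tested were called. This block joins numbers across LPS states, and number 1 was not the same mixture of animals with and without LPS. Of 13 other GPI-anchored surface proteins tested in LPS against control, 5 were called higher and 3 lower, beside the same 31.4% and 30.3%. Bst2, which is also in the interferon list, and Cd14, the LPS co-receptor, rose by 3.43 and 3.78, and Cd109, Cd24a and Nt5e fell by 0.97, 0.85 and 1.12. Between oxLDL+LPS and LPS, 1 of 12 was called higher with the block, Bst1 (0.75, standard error 0.16, adjusted p = 0.0310 from limma), an ectoenzyme that uses NAD, and 4 lower, Cd24a (−0.67), Cd109 (−0.46), Folr2 (−0.41) and Cd14 (−0.35), beside 4.42% and 8.74% of all genes tested.

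The genes whose pattern over the 12 libraries was most like each Ly6 gene were named by Pearson's r of log2 of the normalized count plus 1, over 13482 genes. These r values mostly reflect the step between libraries with and without LPS, which all the named genes share, and they carry no test. For Ly6e they were Tapbpl (0.998), Irf7 (0.998), Gbp6 (0.998), Gsap (0.998) and Gbp2 (0.997). For Ly6c2 they were Fbxl14 (0.984), Marco (0.982), Tpm4 (0.980), Ift57 (0.979) and Pid1 (0.979). Marco, a scavenger receptor of macrophages, shared the low number 2, with 1395, 585 and 1851 normalized counts in LPS and 1797, 640 and 2184 in oxLDL+LPS libraries. For Ly6i they were Mtm1 (0.992), Zcchc2 (0.990), Dck (0.989), Cmklr1 (0.989) and Pid1 (0.988), so that Pid1 stood on the lists of both Ly6c2 and Ly6i. For Ly6a they were Gm12057 (0.979), Gpc1 (0.972), Pik3ap1 (0.968), Saa3 (0.964) and Ccdc50 (0.964). The 4 detected Ly6 genes had r values among themselves of 0.888 (Ly6a and Ly6c2) to 0.958 (Ly6c2 and Ly6i). For Ly6c1, at 0 to 2 normalized counts, likeness is no finding and no gene is named.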

How the data were processed

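Poly(A) RNA was sequenced from 12 PMφ cultures with a directional kit. According to the submitters' processing notes, reads were trimmed with Trimmomatic 0.32, aligned to GRCm38 with STAR 2.5.1b and counted with featureCounts, and whether strand was used is not given in the sources used here. The signal the authors deposited is whole-numbered and has the spacing of read counts that were scaled by a factor for each library. Reads were not recovered exactly, so tests for raw counts were not run. The factors, read from the spacing of low values, gave the implied reads behind the count intervals (exact, 95%).

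Groups were compared with limma 3.58.1 in R 4.3.3 (lmFit, eBayes with trend) on log2 of the value plus 1, over genes with 10 or more in at least 3 of the libraries compared, and Benjamini-Hochberg adjusted p under 0.1 was called. The fit was tested on simulated data. Replicate numbers come from the labels, and the study's methods describe pools divided among groups. Deviations from group means of libraries with one number correlated at 0.709, 0.691 and 0.731 between control and oxLDL and at 0.733, 0.664 and 0.691 between LPS and oxLDL+LPS (over 11186 genes), so the block is given beside results it changes. Between LPS states they were 0.305 to 0.665. The labels give replicate numbers and do not say whether pools were independent experiments. Without the block, p-values measure the spread between the libraries of a group, and with it the spread left after the numbers are fitted.

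The Ly6 genes and all gene lists were chosen with earlier results of these data known. Named genes are the 5 Ly6 genes, per list and comparison the 3 with the smallest p and genes with a role as interferon ligand, receptor or transcription factor, the 5 genes most like each Ly6 gene, and 3 neighbours on each side. Other genes named are all called members of a small list, defining markers or genes chosen after their values were seen (Xist, the Y-linked genes, Mppe1, Bst2 and Isg15 where outside the rule). Of 215 list genes 213 were matched, 8 by an older symbol. A spreadsheet had turned 25 symbols into dates, which were left out of gene names and hold at most 0.165% of a library. Promoters of Ly6a, Ly6e and Ly6i were not analysed here. The values of a further list gene that the rule names are not reported here. Alternatives were the replicate block, a pseudocount of 8, no filter, a minimum in every library, quantile normalization, equal totals, all 12 libraries in one fit and leaving out libraries.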

Additional observations from a re-analysis of the deposited data

How the results depend on the processing

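In LPS against control and oxLDL+LPS against oxLDL, Ly6a, Ly6c2, Ly6e and Ly6i kept their direction and their calls under every alternative run that could be fitted, left-out libraries included, which is a description of genes picked on these values and no evidence of stability. The lowest values of Ly6c2 and Ly6i came with a pseudocount of 8 (4.14 and 3.99 in LPS against control), and that of Ly6e with quantile normalization (2.00). A minimum in every library removed Ly6a, Ly6c2 and Ly6i from these comparisons and from the interaction, so that they could not be fitted. Equal totals moved the median of all genes in LPS against control from −0.001 to −0.478, and Ly6e to 2.21. In oxLDL against control the block called 601 genes, against 103, 63 or 1032 genes when number 1, 2 or 3 was left out. Left-out libraries without the block called 0 genes and gave −0.11 to 0.19 for Ly6e, which turned negative without the control library 1 or 3 or the oxLDL library 2. In oxLDL+LPS against LPS the block called 1682 genes and passed Ly6c2 (0.99) and Ly6i (0.72), and all 12 libraries in one fit called 29 genes. Left-out libraries gave 0 to 91 genes there (91 without the oxLDL+LPS library 2 and 38 without number 2), −0.57 to 0.30 for Ly6a, −0.058 to 2.02 for Ly6c2, −0.087 to 0.076 for Ly6e and 0.097 to 1.496 for Ly6i. With the block, leaving out number 2 gave 2755 genes, 0.97 for Ly6c2 and 0.87 for Ly6i, both past the threshold, leaving out number 1 or number 3 gave 0 genes and lost both calls (1.01 and 0.98 for Ly6c2, 0.68 and 0.61 for Ly6i), and leaving out number 3 gave 0.29 for Ly6a and 0.076 for Ly6e. Quantile normalization turned Ly6e to 0.15, and equal totals turned Ly6e to 0.087 and Ly6a to 0.048. In the interaction, the block within each LPS state, chosen after seeing the data as was leaving out a number without the block, called 147 genes. Ly6a was −0.051 with a pseudocount of 8 and −0.042 with quantile normalization, and Ly6e 0.094 with quantile normalization and 0.056 with equal totals. Left-out libraries gave 0 to 6 genes, −0.99 to 0.79 for Ly6a, −0.39 to 1.69 for Ly6c2 and −0.19 to 0.10 for Ly6e, and with the block 9 genes and −0.99 for Ly6a without number 2 and 0.039 for Ly6e without number 3. Apart from Ly6c2, which turned negative without the LPS library 2, sign changes were those of Ly6a and Ly6e, whose intervals span 0 in these comparisons. The replicate block changed no other call of a Ly6 gene. All such calls describe genes picked on these values and test nothing. Where a value moved, the cause was not tested. Depth limits Ly6c1 in all groups and Ly6c2, Ly6i and Ly6a without LPS.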

Other observations

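The 69 genes at least 2-fold lower in number 2 in both LPS groups, listed by the higher of their 2 shares, hold Ly6c2 at place 9 and Ly6i at place 25. Chosen after their values were seen, Ms4a4a held 17.5% and 11.9% and Ms4a6b 14.8% and 17.6% of the mean of numbers 1 and 3 in the LPS and oxLDL+LPS groups. Their mean normalized counts rose from 39.3 and 52.3 in control to 766 and 624 with LPS, and they were 698 and 663 with oxLDL+LPS, so that, unlike Ly6c2, they were not near 2-fold higher with oxLDL. Cd300e, a myeloid surface receptor, held 24.7% and 21.5%. These values are given as a description, and their relation to the Ly6 genes was not tested.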
